A study of Mus musculus with 2 samples.

Results

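S-phase Pax7-positive cells are muscle progenitors of 1 mouse culture, chosen by their RNA of genes that act around S phase. Only RNA was counted, so whether each of these cells was copying its DNA was not tested. They were picked from a library of induced myogenic progenitor cells (iMPC) by raw counts of unique molecular identifiers (UMIs), each of which tags 1 captured RNA molecule. A cell was taken if it held at least 1 UMI of Pax7, at most 1 of the differentiation factor gene Myog and at most 1 of the fibroblast gene Dcn. In addition, 6 S-phase genes (Mcm5, Cdc6, Ccne2, Hells, Ung and Chaf1b) had to sum to at least 8 UMIs, and 5 mitosis genes (Aspm, Cenpf, Nusap1, Kif23 and Cenpe) to at most 4. The rule found 228 cells among 3009 Pax7-positive cells, 9349 kept iMPC cells and 14732 kept cells of the whole series. They held 5073810 UMIs.

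The series holds 1 iMPC library and 1 library of mouse embryonic fibroblasts (MEF), the primary connective tissue culture from which the iMPC were made. Both have the genotype Tg:Pax7-nGFP/C57BL6;DBA2, in which a transgene reports Pax7. The iMPC were generated with MyoD, a master regulator of muscle identity, plus F/R/C (an abbreviation not spelled out in the labels) and were kept in F/R/C medium, whereas the fibroblasts grew in MEF media. The design text speaks of a stable clone, so the iMPC values describe 1 line. Each group has 1 library, so nothing here has a replicate check and no test was made. Values are UMIs summed over the cells of a gate, scaled to the total of the gate (CPM), and differences are log2 ratios of CPM, where 1 is a doubling. All intervals are exact 95% intervals and cover counting error only. In such sums, fewer cells with an RNA and less of it per cell cannot be told apart.

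Pax7 encodes the transcription factor that marks satellite cells, the stem cells of skeletal muscle, which are quiescent in resting muscle and proliferate as Myf5- and Myod1-expressing progenitors when activated. A cell that enters S phase has passed the Rb and E2F restriction point, at which cyclin and Cdk activity frees E2F factors to transcribe the genes of replication. Origins are licensed in G1 by loading the MCM helicase, fired in S phase by helicase activators, and the new DNA is wrapped in histones that are made in large amounts only at that time. Genes of mitosis follow later, under the DREAM and MuvB complexes, B-Myb and FoxM1.

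The 228 cells held between 10663 and 48301 UMIs, with a median of 20992.5 UMIs and 4262 genes. The S-phase sum, which chose them, ran from 8 to 32 UMIs with a median of 10, and 46 cells sat at exactly 8. The sum was spread over the genes: 39 cells held all 6, 86 held 5, 74 held 4, 26 held 3 and 3 held 2. Hells, a chromatin remodelling helicase, was found in 224 cells (0 to 9 UMIs, median 4). Mcm5, a subunit of the replicative helicase, was found in 208 (0 to 8, median 2). The G1/S cyclin gene Ccne2 was found in 164, Chaf1b, of the chromatin assembly factor CAF-1, in 163, the uracil glycosylase gene Ung in 155, and the MCM loader gene Cdc6 in 130. Pax7 ran from 1 to 8 UMIs per cell with a median of 2. In the 158 cells with at least 20 UMIs of Dcn, a fibroblast set with a median of 18061 UMIs, Hells was found in 10.1% of cells, Mcm5 in 4.43%, Ccne2 in 3.80% and Pax7, by definition, in none. The label's markers were thus present in the members, as the rule requires of their sum. Top2a and Mki67, cell cycle genes that the rule did not use for these cells, were found in 213 and 154 of them.

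The other Pax7-positive cells were sorted by the same sums. The non-cycling gate, Pax7-positive cells without a UMI of Top2a or Mki67, held 966 cells after 9 that also met the S-phase limits had been left out of it. The G2/M gate, with a mitosis sum of at least 8 and an S-phase sum of at most 4, held 903 cells. A further 75 cells passed the S-phase limit but exceeded the mitosis limit, and 838 cells fell in none of these. Depth differed between the gates: the median was 14871.5 UMIs in non-cycling, 29250 in the cells with both sums high, and 24576 in G2/M cells. Scrublet, which scores likely doublets, marked 4 of the 228 S-phase cells. Of 15 barcodes kept in both libraries, 1 was an S-phase cell.

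**Figure D1:**
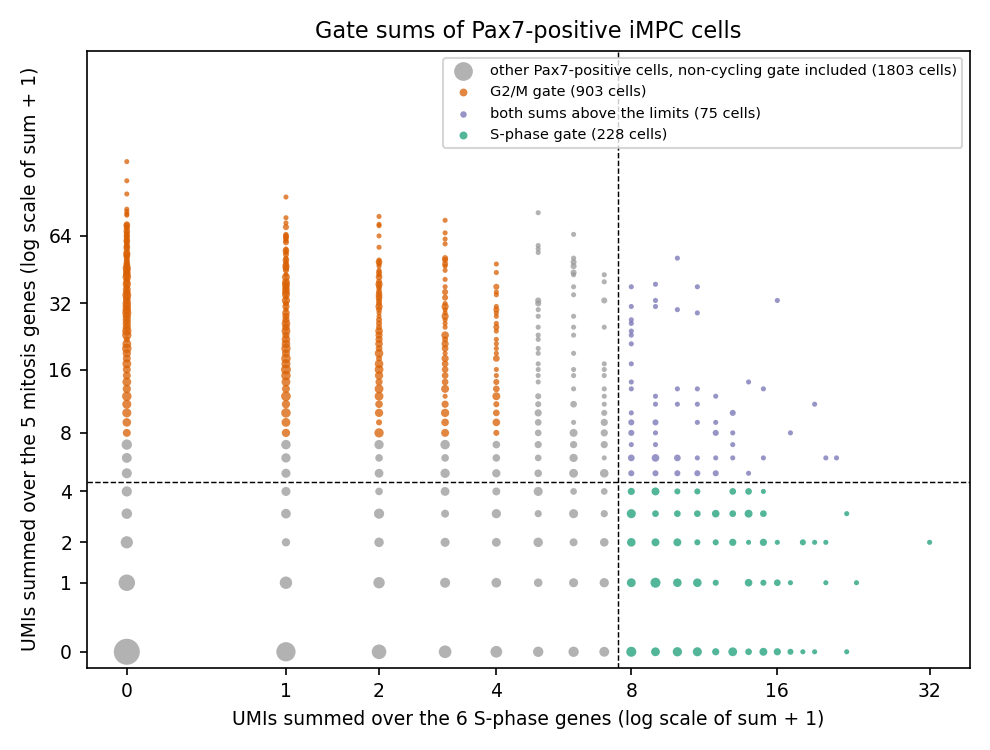
UMIs summed over the 6 S-phase genes against UMIs summed over the 5 mitosis genes, both on a log scale of sum + 1, for 3009 Pax7-positive iMPC cells; a point is a pair of sums, its size grows with the number of cells, and dashed lines mark the limits of 8 and 4 UMIs. The 228 S-phase cells lie at the lower right, without a gap between them and the cells to their left, while the 903 G2/M cells form the column of high mitosis sums.

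Values just outside and just inside the S-phase limit were close. Cells with a sum of 6 or 7 (86 cells) held 154 CPM of Rrm2 and 472 CPM of Pclaf, and those at 8 or 9 (85 cells) held 192 and 480 CPM. Across the mitosis limit, the 58 cells with a sum of 3 or 4 held 35.0 CPM of the mitotic cyclin gene Ccnb1, and the 28 cells with 5 or 6 held 65.8 CPM.

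The S-phase gate took 7.58% of Pax7-positive cells (6.66 to 8.58%). With the same S-phase and mitosis limits it took 42 of 2340 Myog-positive cells (1.79%, 1.30 to 2.42%), which were defined by at least 5 UMIs of Myog, no UMI of Pax7 and at most 1 of Dcn, and 83 of 5383 MEF cells (1.54%, 1.23 to 1.91%). It took 1 of 158 cells with at least 20 UMIs of Dcn. These sets differ in depth, with medians of 19244, 28669, 20201 and 18061 UMIs. After every cell had been thinned to 8000 UMIs and the limits lowered to 4 and 2, the shares were 6.02% (5.19 to 6.93%) of Pax7-positive, 1.496% (1.04 to 2.07%) of Myog-positive and 1.15% (0.88 to 1.47%) of MEF cells. The Pax7-positive share was thus above those of Myog-positive and MEF cells beyond counting error, with and without thinning. Of all 9349 iMPC cells, 476 met the same limits (5.09%, 4.65 to 5.56%), and 374 did after thinning. Those 476 include the 228 Pax7-positive and 42 Myog-positive cells, so other cells of the culture met the limits too. Whether the Pax7-positive share exceeds that of the remaining iMPC cells was not tested.

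E2F sites are known from promoters of G1/S genes, and the CCAAT box and the CHR element from those of mitosis genes. The promoters of the rule's own genes were searched for such letters. They were taken from RefSeq (GRCm38.p6, the build named in the submitters' processing notes) as windows from 250 bases before to 50 after each start. Of the 6 S-phase genes 5 had a window, and 3 held 1 of the 4 E2F words searched on both strands (TTTCCCGC, TTTCGCGC, TTTGGCGC and TTTGCCGC). Such a word stood in 2.61% of 27025 gene symbols and in 5.37% of the 6271 genes with a window among those at 10 CPM or more in these gates. All 5 mitosis genes had a window. None held an E2F word, 4 held a CCAAT box (CCAAT, both strands) and 3 the CHR element (TTTGAA, both strands), against 41.1% and 20.2% of all symbols. Of the 5 S-phase windows, 1 held a CCAAT box and 0 the CHR element. The stretches below lie before the start, outside annotated exons, and are shown as examples of the E2F words, in Mcm5, Cdc6 and another MCM gene, Mcm6, and of the CCAAT boxes, in Aspm and Cenpf (capitals; all run 5′ to 3′ on the gene's strand). In Mcm5 and Mcm6 a pair of words overlap, and outside the stretches shown both windows also hold CCAAT boxes, as do those of Aspm and Cenpf. The Mcm5 stretch is chr8:75109325-75109394 (plus strand), the Cdc6 stretch chr11:98907982-98908051 (plus strand, inside the GENCODE gene, in an intron), the Mcm6 stretch chr1:128359777-128359846 (minus strand), the Aspm stretch chr1:139454629-139454698 (plus strand) and the Cenpf stretch chr1:189688180-189688249 (minus strand).
Mcm5: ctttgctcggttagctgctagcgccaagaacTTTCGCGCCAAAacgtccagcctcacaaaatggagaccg
Cdc6: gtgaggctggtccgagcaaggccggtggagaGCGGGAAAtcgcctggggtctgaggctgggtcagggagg
Mcm6: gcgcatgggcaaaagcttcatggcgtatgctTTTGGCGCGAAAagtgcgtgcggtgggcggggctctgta
Aspm: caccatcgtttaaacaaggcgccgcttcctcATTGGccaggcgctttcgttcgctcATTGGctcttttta
Cenpf: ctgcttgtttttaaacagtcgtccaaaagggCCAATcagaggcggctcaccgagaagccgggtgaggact

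The gene lists outside the rule held these words in unlike shares. Among the 8 replication lists, the share with an E2F word was highest in origin licensing, with 7 of 12 genes with a window (58.3%). It was lowest in deoxynucleotide supply, with 0 of 12. Such a word stood in 29 of 106 genes of all replication lists (27.4%) and in 3 of 43 mitosis genes (6.98%). It stood in 0 of 19 satellite cell genes and in 1 of 21 muscle differentiation genes. The mitosis list held a CCAAT box in 32 of 43 windows (74.4%) and a CHR element in 30 (69.8%). The replication lists held them in 57.5% and 17.0%. A match is a description of the letters only, and a gene without one may have it outside the window.

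Set against the non-cycling cells, the S-phase cells held more RNA of nearly every replication gene, of most mitosis genes and of most ribosome biogenesis genes. A gene was counted where it reached 10 CPM in the higher gate and its ratio passed 1.5-fold. Of 7849 genes compared, 1500 (19.1%) were higher in the S-phase cells and 1204 (15.3%) were lower, with a median log2 ratio of 0.05. Because the gates were cut on replication and cycle genes of the same cells, these counts describe the gates and nothing is read from their size. Over 8 replication lists with 135 genes outside the rule, 122 reached 10 CPM, 110 were higher and 1 was lower, and the median log2 ratio over all 135 was 2.18.

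Origin licensing genes came first in the order of events. Of 14 listed genes, 12 reached 10 CPM and 10 were higher. The helicase subunit genes outside the rule were all among them: Mcm3 held 173 CPM in S-phase against 25.2 CPM in non-cycling cells (log2 ratio 2.78, 2.61 to 2.96), Mcm2 72.9 against 10.3 CPM, Mcm7 124 against 21.6 CPM, Mcm4 84.2 against 18.6 CPM and Mcm6 138 against 38.2 CPM. Orc6, of the origin recognition complex, held 232 against 62.7 CPM, while Orc3 and Orc4 stayed within 1.5-fold. Among those at 10 CPM the highest ratio was that of Gmnn, which encodes geminin, the protein that blocks relicensing after S phase has begun (148 against 12.8 CPM, 3.53, 3.30 to 3.77). Cdt1, the licensing factor that geminin binds, held 58.9 against 20.9 CPM.

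All 12 of 14 origin firing genes that reached 10 CPM were higher, with a list median of 2.75. Mcm10, which helps to activate the helicase, held 32.9 against 1.11 CPM (4.88, 4.16 to 5.70). Cdc45, a component of the active helicase, held 52.2 against 2.88 CPM (4.18, 3.71 to 4.67). Gins2, of its GINS partner complex, held 104 against 19.9 CPM, and Topbp1, a scaffold of firing and of the checkpoint, 99.7 against 18.0 CPM. The smallest ratio was that of Mtbp (0.91, 0.38 to 1.43).

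Of the 27 genes of polymerases, clamp and Okazaki fragment processing, 26 were higher. Pcna, the sliding clamp, was found in every S-phase cell (1 to 18 UMIs, median 6.5) and held 317 against 58.2 CPM (2.45, 2.33 to 2.57). Pole, the catalytic subunit of the leading strand polymerase, had the highest ratio (24.8 against 2.43 CPM, 3.36). The flap endonuclease gene Fen1 held 65.4 against 7.08 CPM and the ligase gene Lig1 152 against 22.9 CPM. The exception was Pold4, the small subunit of polymerase delta, with 80.2 CPM in S-phase and 178 CPM in non-cycling cells (-1.15). It stood at 106 CPM in G2/M cells.

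Deoxynucleotide supply genes were higher in 12 of 13 cases. Rrm2, the S-phase subunit of ribonucleotide reductase (chr12:24708241-24714146, GRCm38), was found in 212 of the 228 cells and held 198 CPM (186 to 211) against 9.51 CPM (8.02 to 11.2). Thymidine kinase gene Tk1 held 87.9 against 4.79 CPM (4.20, 3.84 to 4.58). Dut, the dUTPase gene, held 375 against 128 CPM and the nucleoside diphosphate kinase gene Nme1 387 against 204 CPM. Only Cmpk1 stayed within 1.5-fold (66.2 against 60.1 CPM).

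All 15 chromatin assembly and maintenance methylation genes were higher. Asf1b, a histone chaperone, led by ratio (57.9 against 3.21 CPM, 4.17, 3.73 to 4.64). Nasp, which carries the linker histone, held 356 against 45.8 CPM. Uhrf1, which recruits the maintenance methyltransferase to new DNA, held 108 against 10.6 CPM, and Dnmt1, that methyltransferase, 113 against 28.9 CPM. Slbp, whose product binds the stem loop of histone mRNA, held 159 against 47.1 CPM.

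Histone genes were among those with the highest ratios. Their mRNAs mostly end in a stem loop in place of a poly(A) tail, and the assay primes on poly(A), so levels are compared between gates only. They also have near-identical copies, between which reads can be split. The 67 symbols that start with Hist and a digit were gathered after values had been seen. Of these 13 reached 10 CPM, 11 were higher and 2 lower. Hist1h1b, a linker histone gene (chr13:21779883-21780625), held 165 CPM (154 to 177) against 2.10 CPM (1.44 to 2.96), a log2 ratio of 6.30 (5.79 to 6.86). Hist1h2ap held 289 against 5.70 CPM (5.66, 5.35 to 5.99) and Hist1h2ae 160 against 5.31 CPM (4.91, 4.58 to 5.26). The spread among members was wide: Hist1h2ap ran from 0 to 42 UMIs per cell with a median of 4, and 162 of 228 cells held any. The 2 lower genes were Hist1h2bc (36.1 against 81.5 CPM) and Hist1h1c (13.6 against 28.5 CPM).

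Fork protection and checkpoint genes were higher in 11 of 14 cases and DNA repair genes in all 16 of 22 that reached 10 CPM, with a list median of 3.82. Pclaf, whose product binds the clamp (chr9:65890237-65903266), was found in 227 of 228 cells and held 512 CPM (492 to 532) against 19.2 CPM (17.1 to 21.5). Clspn, the mediator of Chk1 activation, held 101 against 5.64 CPM (4.16, 3.83 to 4.51), and its target kinase gene Chek1 38.4 against 5.11 CPM. The checkpoint kinase gene Atr stayed within 1.5-fold (11.2 against 10.1 CPM). Rad51ap1, a recombination factor gene, held 103 against 2.95 CPM (5.13), the highest ratio among repair genes at 10 CPM.

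By size of ratio, the 12 highest genes at 50 CPM or more included Hist1h1b, Hist1h2ap, Rad51ap1, Fbxo5, Hist1h2ae, Pclaf, Rrm2, Tk1, Cdc45, Asf1b and Clspn. They are histone, replication or repair genes except Fbxo5, which encodes Emi1, an inhibitor of the anaphase promoting complex (78.6 against 2.29 CPM). Some of the RNA of these genes was also found in the Dcn-rich set, where Pclaf was seen in 19 of 158 cells, Rrm2 in 9 and Hist1h2ap in 34.

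The cohesion list was divided. Of 13 genes at 10 CPM, 8 were higher and 5 stayed within 1.5-fold, with a median of 0.82. Esco2, which acetylates cohesin during replication, had 34.7 against 0.59 CPM (5.88, 4.92 to 7.03). The structural subunit genes Smc3 and Smc1a held 168 against 71.7 CPM and 160 against 88.2 CPM. The release factor gene Wapl held 62.5 and 62.0 CPM.

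**Figure D2:**
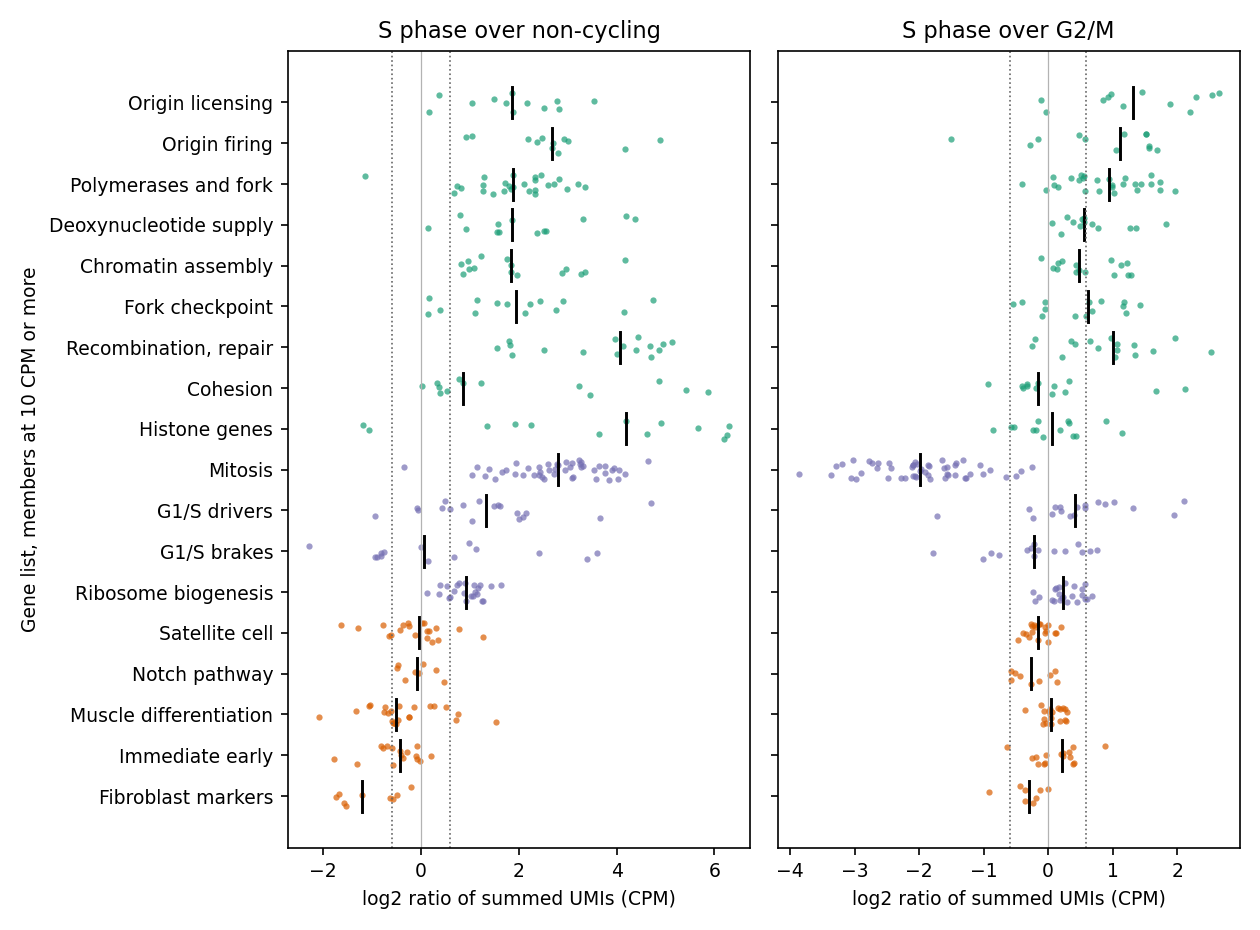
log2 ratio of CPM for each member of 18 gene groups at 10 CPM or more, S-phase over non-cycling cells on the left and S-phase over G2/M cells on the right; each point is a gene, black bars are medians over the points drawn, and dotted lines mark 1.5-fold. Replication and mitosis genes lie to the right of the lines in the left panel, and the mitosis genes alone move far to the left in the right panel.

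Genes that drive entry into S phase were higher in 13 of 18 cases, with a list median of 1.18. Mybl2, which encodes B-Myb, had the highest ratio (27.2 against 1.05 CPM, 4.70, 3.95 to 5.54). E2f1, an activating E2F, held 70.4 against 23.7 CPM, and Ccne1, the partner of Cdk2 at the G1/S boundary, 199 against 65.2 CPM. D cyclins act earlier. Ccnd1 held 248 against 263 CPM and Ccnd3 412 against 292 CPM, both within 1.5-fold, and Ccnd2 was lower (75.1 against 145 CPM, -0.95, -1.11 to -0.79). Myc held 30.2 against 31.5 CPM.

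Genes that brake this step moved in opposite directions, 6 higher and 6 lower of 14 at 10 CPM. The higher ones included E2f7 and E2f8, repressor E2Fs that are themselves E2F targets, with 25.4 against 2.10 CPM and 22.9 against 2.16 CPM, and the pocket protein gene Rbl1. Among the Cdk inhibitors, Cdkn2b was 21.9 against 107 CPM (-2.29, -2.58 to -2.01), Cdkn2a 565 against 1054 CPM (-0.90, -0.96 to -0.84) and Cdkn1a 277 against 485 CPM (-0.81, -0.89 to -0.73). Cdkn2a, whose products are p16 and p19, was found in all 228 S-phase cells, with 2 to 49 UMIs and a median of 11. Cdkn1c, the p57 gene, stood at 241 CPM (228 to 255) in S-phase and 242 CPM (234 to 250) in non-cycling cells. The fibroblast-rich Dcn set held 169 CPM of Cdkn2b, 1286 CPM of Cdkn2a and 775 CPM of Cdkn1a. The part of such cells in these differences was not tested.

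Although the rule capped 5 mitosis genes, 46 of the 47 other mitosis genes at 10 CPM were higher than in non-cycling cells, with a list median of 2.74. Cdk1, the mitotic kinase gene, held 166 against 19.5 CPM, Birc5, which encodes survivin, 153 against 15.4 CPM and Aurkb, of the same passenger complex, 37.6 against 1.51 CPM (4.64, 4.01 to 5.33), the highest ratio. The exception was the phosphatase gene Cdc25b (13.8 against 17.6 CPM). Ribosome biogenesis genes differed less. Of 23 at 10 CPM, 18 were higher, with a median of 0.93. Nucleolin gene Ncl held 906 against 493 CPM and Nolc1 121 against 39.0 CPM, the highest ratio at 1.63, while the nucleophosmin gene Npm1 stayed within 1.5-fold (2821 against 2186 CPM).

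The comparison with G2/M cells shows which of these genes were S-phase high within the cycle. Of 7639 genes, 318 (4.16%) were higher in S-phase cells and 456 (5.97%) lower, so these gates differed in fewer genes than S-phase and non-cycling cells. Of 52 mitosis genes 49 were lower, with a median of -1.98, and of 122 replication genes 65 were higher and 2 lower, with a median of 0.65 over all 135. Both gates were cut on genes of these kinds.

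Licensing genes differed from G2/M the most among the replication lists (median 1.31). The 8 genes with the largest ratios at 50 CPM or more, a rule set after values had been seen, included Mcm2, Mcm4, Mcm3, Mcm6, E2f1, Cdt1 and Dtl. Mcm2 held 72.9 CPM (65.7 to 80.7) in S-phase and 11.7 CPM (10.3 to 13.1) in G2/M, close to the 10.3 CPM of non-cycling cells. Dtl, whose product directs the destruction of Cdt1 in S phase, held 91.3 against 24.8 CPM. Cdt1 in G2/M was below its non-cycling level (15.8 against 20.9 CPM). Nucleotide supply (median 0.56) and chromatin assembly genes (0.48) differed less: Rrm1 held 124 CPM in S-phase and 108 CPM in G2/M, and Ezh2, the Polycomb methyltransferase gene, 200 and 182 CPM. Cohesion genes had a median of -0.17, and the cohesin cleavage target gene Rad21 was lower in S-phase (81.6 against 156 CPM).

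Histone mRNA did not follow Mcm2. Hist1h1b stood at 165 CPM in S-phase, 180 CPM in the cells with both sums high and 127 CPM in G2/M, and Hist1h2ap at 289, 350 and 231 CPM. Their log2 ratios of S-phase to G2/M were 0.38 and 0.32. Of the 14 histone genes at 10 CPM, 2 were higher, 1 was lower and 11 stayed within 1.5-fold. Of all genes compared, 4.16% were higher and 5.97% lower. The 8 genes that were lower by the largest ratio were Gas2l3, Kif2c, Aurka, Ccnb1, Hmmr, Cdc20, Arl6ip1 and Kif20a, most of them spindle, cytokinesis or anaphase genes. Ccnb1 held 23.8 CPM (19.8 to 28.5) in S-phase, 98.96 CPM in the cells with both sums high and 219 CPM (213 to 226) in G2/M. Besides Rad21, Dbf4, the activator of the Cdc7 kinase, was lower among the replication lists (30.4 against 86.1 CPM).

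**Figure D3:**
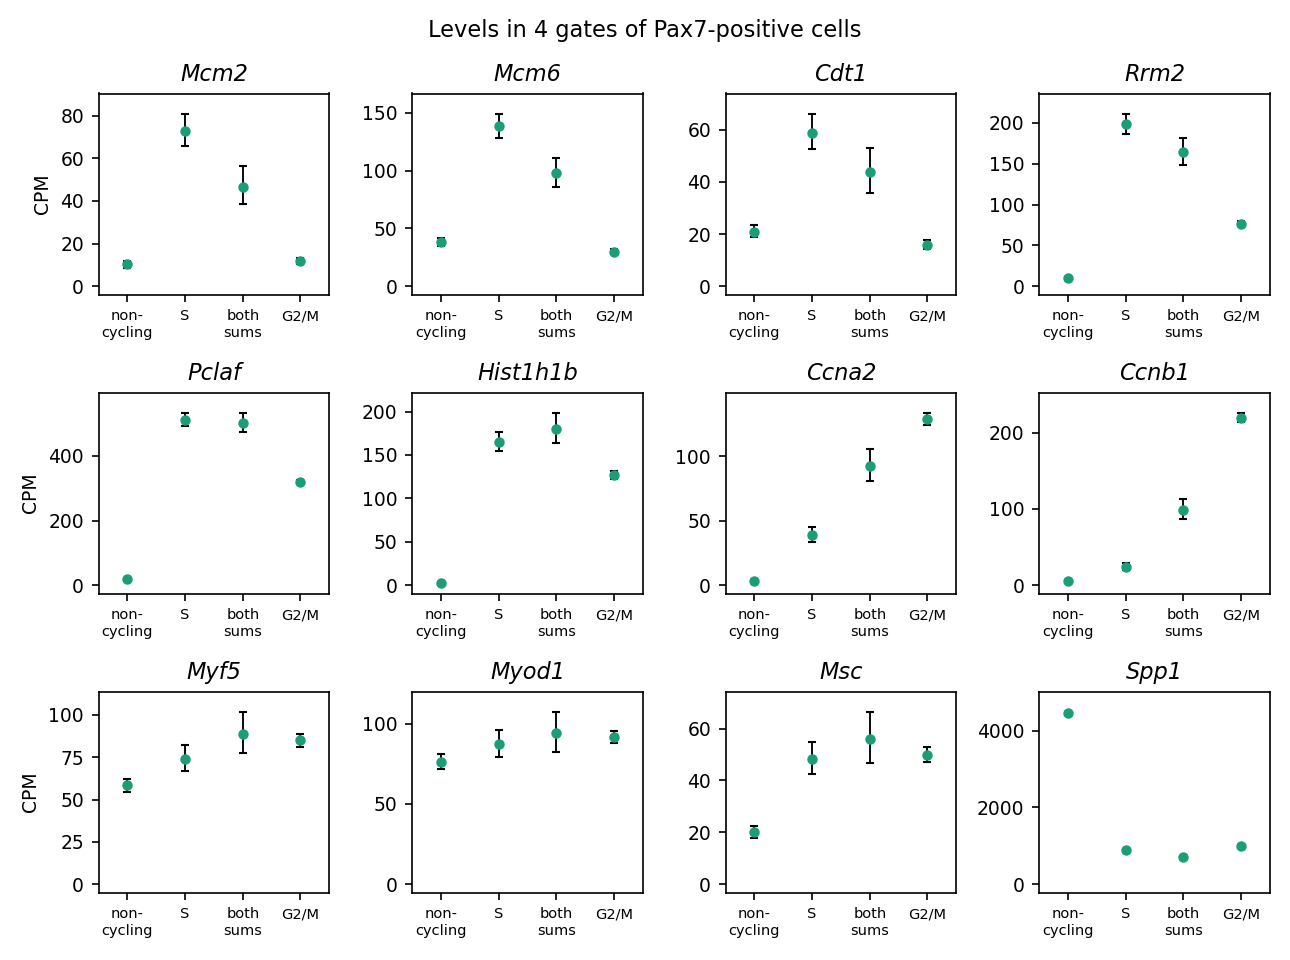
CPM of 12 genes in 4 gates of Pax7-positive cells, with exact 95% Poisson intervals (vertical bars, counting error only). Mcm2, Mcm6 and Cdt1 peak in the S gate and are low in G2/M, Pclaf and Hist1h1b stay high into G2/M, Ccna2 and Ccnb1 are highest in G2/M, and Spp1 is highest in non-cycling cells.

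Satellite cell genes passed 1.5-fold about as often as genes at large. Of 28 listed, 20 reached 10 CPM, 2 were higher in S-phase than in non-cycling cells, 5 lower and 13 within 1.5-fold, beside 19.1% higher and 15.3% lower of all genes compared, with a median of -0.24 over the 23 members above the count floor. Against G2/M all 20 stayed within 1.5-fold, as did most genes there, of which 4.16% were higher and 5.97% lower. Pax7 itself, which the rule used, stood at 110 CPM (101 to 120) in S-phase, 129 CPM (123 to 135) in non-cycling and 116 CPM (111 to 120) in G2/M cells. The higher genes were Msc, which encodes musculin, a repressor bHLH factor (48.5 against 20.1 CPM, 1.27, 1.03 to 1.52), and Met, the HGF receptor gene (27.4 against 16.1 CPM). With gates drawn on thinned counts and levels summed from the unthinned counts, Met no longer passed 1.5-fold (0.28), whereas Msc did (1.23). Those gates hold a different set of cells, so depth was not made equal and its part in the Met ratio was not tested. The lower genes were Sdc3 (15.96 against 49.4 CPM), Fgfr1 (52.2 against 128 CPM), Ncam1, Spry1 and Sdc4. Among cells of 15000 to 40000 UMIs Spry1 no longer passed 1.5-fold (-0.48). Des, the muscle intermediate filament gene, held 740 against 679 CPM, the imprinted gene Peg3 656 against 587 CPM and Gas1 323 against 317 CPM. Pax3, Chrdl2, Chodl and Tcf21 had no UMI in S-phase cells, and Calcr and Cd34 had 1 each. The quiescence genes Calcr and Chodl were thus near or at 0 in the non-cycling gate too (1 and 0 UMIs).

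Myf5 and Myod1, the early myogenic factors, were found together in a higher share of S-phase cells. After thinning to 8000 UMIs, 18.0% of S-phase cells (13.2 to 23.6%) held both Myf5 and Myod1, against 10.4% of non-cycling cells (8.502 to 12.4%). The shares with neither were 34.6% (28.5 to 41.2%) and 45.7% (42.5 to 48.9%). Taken singly, Myf5 was found in 42.1% (35.6 to 48.8%) of S-phase and 30.0% (27.1 to 33.0%) of non-cycling cells. For Myod1 the shares were 41.2% (34.8 to 47.9%) and 34.7% (31.7 to 37.8%). Whether the 2 genes occurred together more often than these separate shares give was not tested. In G2/M cells 14.95% held both and 33.6% neither. In the cells with at least 20 UMIs of Dcn, 1.27% held both and 96.8% neither. As levels, Myf5 held 74.1 against 58.4 CPM and Myod1 87.3 against 76.3 CPM, each within 1.5-fold. None of the 8 Notch pathway genes at 10 CPM passed 1.5-fold either, from Notch2 (8.08 against 11.4 CPM) to Hes6 (58.1 against 42.1 CPM). Of all genes compared, 19.1% were higher and 15.3% lower.

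Genes of muscle differentiation were low in S-phase cells and split by direction. Of 27 listed, 23 reached 10 CPM, with 3 higher, 9 lower and 11 within 1.5-fold of non-cycling cells, and a list median of -0.46. The lower ones included Acta1, the skeletal actin gene (188 against 390 CPM), Myl1, a fast light chain gene (132 against 273 CPM), and Ckm, creatine kinase (2.96 against 12.5 CPM). Tnnt1, slow troponin T, went the other way with 497 CPM (478 to 517) against 172 CPM (166 to 179), and so did Actc1, cardiac actin (460 against 272 CPM), and Ttn, titin (165 against 100 CPM). Tnnt1 ran from 0 to 56 UMIs per S-phase cell with a median of 7, and its level in G2/M was 425 CPM. Reads may be shared between the actin genes, which resemble each other. Barcodes of 200 to 600 UMIs were taken as free RNA of this library. They summed to 55144 CPM over this list, against 2818 CPM in S-phase and 2893 CPM in non-cycling cells. Whether such barcodes hold free RNA or fragments of cells was not tested. For a subtraction, 430 UMIs of their profile, their median depth, were assumed in every cell, and sums were held at 0 or above. After subtraction of that profile Tnnt1 had a log2 ratio of 2.06, Actc1 of 1.35 and Acta1 of -1.90. The subtraction moved other members by more: Cav3 went from -0.19 to 1.41, a change of direction, Mymx from 0.15 to 1.87, Tnni2 from 0.51 to 1.30 and Myl1 from -1.05 to -6.25. With gates drawn after thinning to 8000 UMIs and levels summed from the unthinned counts, Tnnt1 still passed 1.5-fold (1.23). Actc1 (0.55) and Ttn (0.20) did not. Those gates hold a different set of cells, with 125 in the S-phase gate, so depth was not made equal.

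Genes that were much lower than in non-cycling cells included signalling and matrix genes. The 12 lowest ratios at 50 CPM or more belonged to Cck, Id4, Gsta4, Areg, Rgs5, Nqo1, Tshz2, Serpine2, Crabp1, Gem, Col6a2 and Spp1. Cck, a peptide hormone gene (chr9:121489824-121495694), held 2.76 CPM (1.51 to 4.63) against 186 CPM (179 to 193), a log2 ratio of -6.07 (-6.94 to -5.32). Its UMIs in the non-cycling gate came from 118 of 966 cells, with up to 236 in 1 cell. Spp1, osteopontin (chr5:104435118-104441050), held 900 against 4444 CPM (-2.30, -2.35 to -2.26), Areg, an EGF family ligand gene, 34.5 against 278 CPM, and Col6a2, a collagen VI gene, 49.5 against 245 CPM. The quinone reductase gene Nqo1 held 14.8 against 90.6 CPM. Of the Gsta4 UMIs in S-phase cells 59.6% came from 1 cell.

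Fibroblast markers were lower as well, in 6 of 9 at 10 CPM with 0 higher, and summed to 1238 CPM in S-phase, 2509 CPM in non-cycling and 1487 CPM in G2/M cells. Col3a1 held 382 against 1106 CPM. Cells with at least 20 UMIs of Dcn held 1341 CPM of Cck and 12699 CPM of Spp1, above the levels of both genes in the non-cycling gate. The part of such cells in the lower S-phase values was not tested. With cells holding a UMI of Myog or Dcn left out, Cck had a log2 ratio of -5.57, Spp1 of -2.30 and Col6a2 of -2.23. Only 48 of 966 non-cycling and 11 of 228 S-phase cells held a UMI of Dcn, so the Dcn part of this filter could change little. Immediate early genes, which respond to dissociation, were lower in 5 of 16 and higher in 0, with Fosb at 8.28 against 28.3 CPM. Of 6 smooth muscle markers 3 reached 10 CPM, of which Acta2 was higher (381 against 230 CPM) and 2 stayed within 1.5-fold. The median over all 6 was -0.23. No endothelial, immune, glial or epithelial marker reached 10 CPM, and Ptprc, Kdr, Tek, Emcn, Krt8 and Krt5 had no UMI in either gate.

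All 24 named genes, 12 in each direction, kept their direction past 1.5-fold under 7 alternatives that changed the limits, the depth, the free RNA or the weighting of cells. These genes had been picked for the largest ratios, and each alternative drew on the same library. Keeping the direction was therefore close to given in advance and is no independent check.

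The S-phase cells themselves were not uniform. Their Top2a UMIs, which the rule left free, ran from 0 to 22, and cells were put in 4 bands by it after values had been seen: 34 cells with 0 to 1, 69 with 2 to 4, 92 with 5 to 9 and 33 with 10 to 22. Summed histone mRNA stood at 420, 675, 1089 and 1532 CPM over these bands, and Hist1h1b at 54.3, 93.0, 217 and 258 CPM. Summed histone mRNA was thus higher in each band than in the one before it, although the intervals of Hist1h1b overlapped between the last 2 bands. Ung, which removes uracil from DNA and was used by the rule, went the other way with 72.9, 76.7, 54.8 and 28.6 CPM. Summed licensing genes varied little (1064, 1243, 1172 and 1248 CPM). The mitosis list stood at 2182, 2615, 3298 and 4082 CPM. Mki67 held 44.3 CPM (30.1 to 62.9) in the first band and 160 CPM (134 to 191) in the last, and Fbxo5 41.5 and 118 CPM. Pax7 (119, 99.8, 105 and 134 CPM) had overlapping intervals in all bands. Spp1 was lower in the last band (579 CPM) than in the first (1041 CPM). Median depth was 18863.5 UMIs in the first and 22971 UMIs in the last band, and its part in these differences was not tested.

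**Figure D4:**
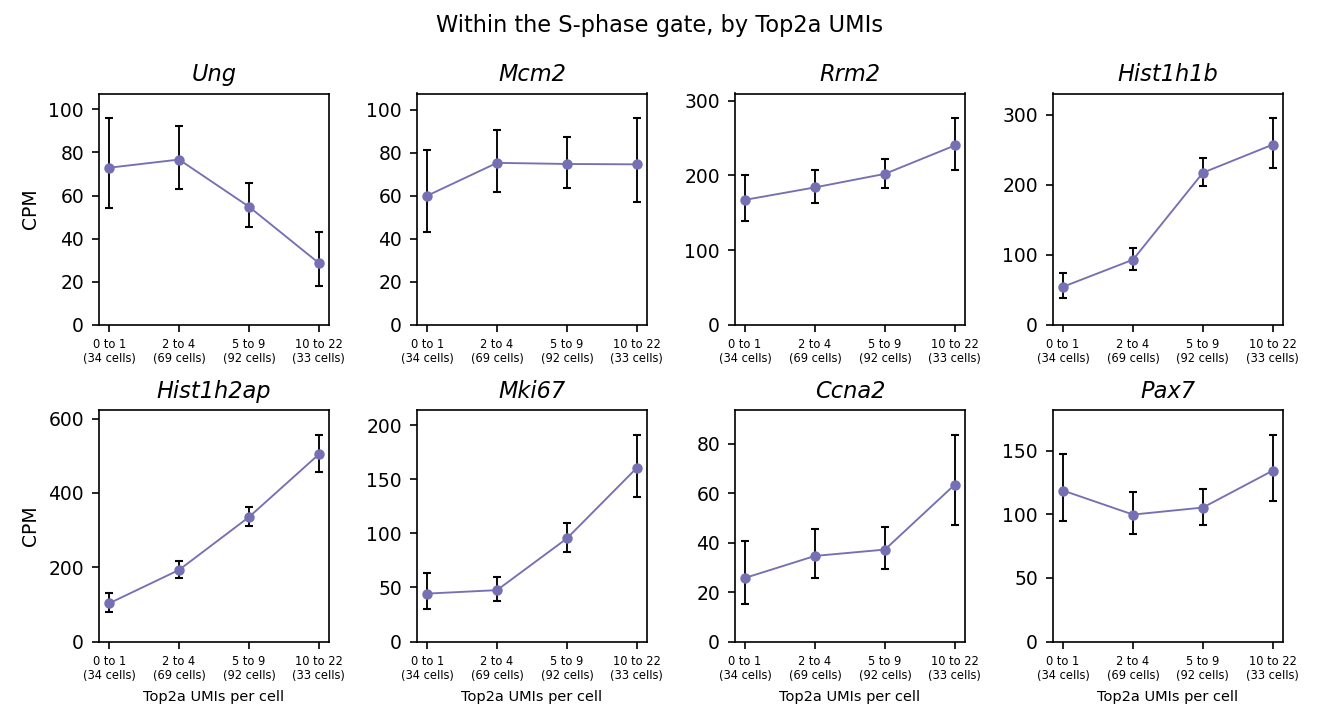
CPM of 8 genes in the 228 S-phase cells, by UMIs of Top2a per cell in 4 bands, with exact 95% Poisson intervals (vertical bars, counting error only). Hist1h1b, Hist1h2ap and Mki67 are higher in the bands with more Top2a, Ung is lower in the last band, and Mcm2 and Pax7 have overlapping intervals in all bands.

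S-phase cells of the later myogenic stage allow a comparison at the same replication limits. The 42 S-phase Myog-positive cells held 1110034 UMIs. Of 7750 genes, 1354 (17.5%) were higher in the Pax7-positive S-phase cells and 870 (11.2%) lower. Within the Myog-positive stage itself, S-phase against 1615 non-cycling cells gave 33.9% of 7477 genes higher and 16.7% lower. The replication lists were nearly level, with 16 higher and 3 lower of 126 and a median of 0.20 over all 135, and no chromatin assembly gene passed 1.5-fold. Cells of both gates had to meet the same S-phase limit, so level replication genes follow in part from the gates. Pcna held 317 CPM (302 to 333) in Pax7-positive and 276 CPM (246 to 308) in Myog-positive S-phase cells, and Rrm2 198 and 175 CPM with overlapping intervals. Pola1, the primase-bound polymerase gene, was among the exceptions with 52.0 against 17.1 CPM.

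All 27 differentiation genes were lower in the Pax7-positive S-phase cells, with a median of -3.03. Both gates were cut on the differentiation factor gene Myog and on Pax7, so this direction follows in part from the gates. The 8 lowest ratios at 50 CPM or more were those of Ppp1r27, Lmod2, Mymk, Pvalb, Mymx, Klhl41, Casq2 and Chrna1. The myoblast fusion genes Mymk and Mymx held 5.72 against 155 CPM and 7.49 against 157 CPM. Free RNA held 210 and 215 CPM of them, and its part in the low S-phase values was not tested. Myod1 held 87.3 CPM (79.4 to 95.8) against 335 CPM (302 to 371), and Myf5 74.1 CPM (66.8 to 82.0) against 21.6 CPM (13.9 to 32.2). The 8 highest at that level were those of Col6a3, Eva1b, Islr, Tkt, Col5a2, Nid1, Tnfaip2 and Notch3. The receptor gene Notch3 held 50.5 against 9.01 CPM (2.49, 1.58 to 3.56), and Msc 48.5 against 2.70 CPM. Several of the 8 are collagen or basement membrane genes, and fibroblast markers were higher in 7 of 8 cases (summed 1238 against 488 CPM).

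Of 15 cell cycle brake genes at 10 CPM, 1 was higher in the Pax7-positive S-phase cells, 6 were lower and 8 stayed within 1.5-fold. Cdkn1c held 241 CPM (228 to 255) in Pax7-positive against 1335 CPM (1268 to 1405) in Myog-positive S-phase cells, Cdkn1a 277 CPM (262 to 292) against 736 CPM (686 to 788), and the retinoblastoma gene Rb1 8.67 CPM (6.30 to 11.6) against 55.9 CPM (42.8 to 71.6). Cdkn1c is carried in the free RNA at 852 CPM and Rb1 at 43.0 CPM. The part of free RNA in these differences was not tested. Cdkn2b went the other way, with 21.9 against 9.91 CPM.

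**Figure D5:**
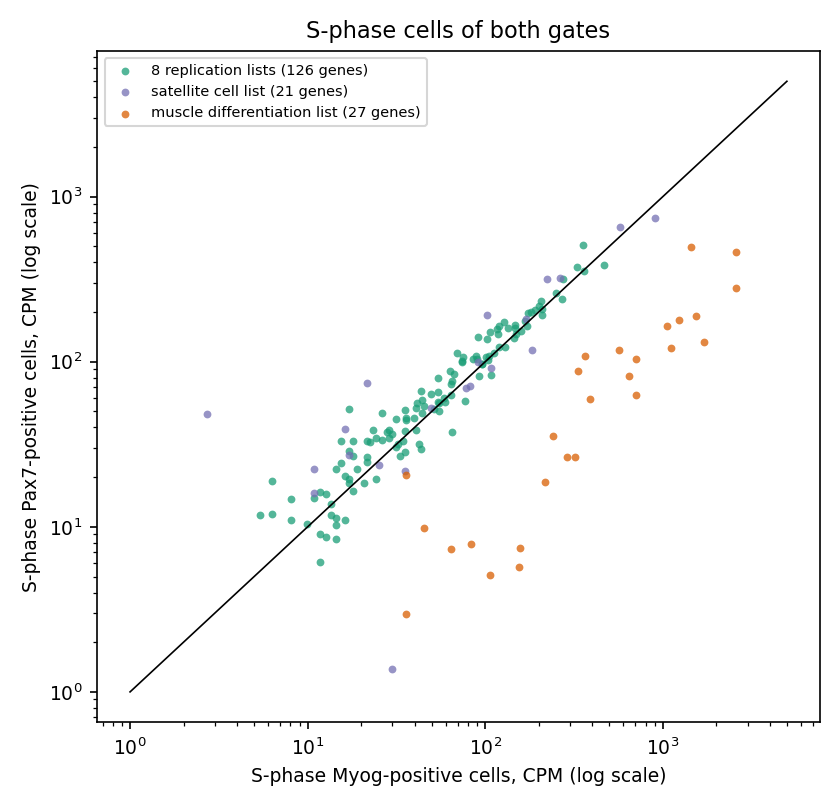
CPM in S-phase Pax7-positive cells (vertical) against S-phase Myog-positive cells (horizontal), both on log scales, for genes of the 8 replication lists, the satellite cell list and the differentiation list at 10 CPM or more in either gate and with a UMI in both; the line marks equal levels. Replication genes lie along the line, and all 27 differentiation genes lie below it. The gates share the S-phase limit and were cut apart on Myog and Pax7.

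In the fibroblast library the same S-phase and mitosis limits, without the Pax7, Myog and Dcn terms, took 83 cells against 4474 without Top2a or Mki67. Of 8175 genes 1218 (14.9%) were higher in those S-phase cells and 640 (7.83%) lower. The replication lists had a median log2 ratio of 2.74, with 104 higher and 1 lower of 114, and the lower gene was again Pold4 (-0.94). Clspn had 6.32, Tk1 5.09 and Rrm2 4.47 in MEF, beside 4.16, 4.20 and 4.38 in Pax7-positive iMPC cells. Cdkn2b had -1.59, Cdkn2a -1.08 and Cdkn1a -1.06 in MEF, beside -2.29, -0.90 and -0.81. Cdkn1c had -1.32 in MEF beside the near-equal 241 and 242 CPM in Pax7-positive cells, and Ccnd2 -0.36 beside -0.95. Whether these pairs differ was not tested, as each library stands for its group alone.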

How the data were processed

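The deposited matrices hold unnormalised counts of UMIs, as whole numbers for each gene in each barcode. The submitters' processing notes name Cell Ranger 4.0, Seurat 3.2.3 and the build GRCm38.p6. The iMPC matrix lists 6794880 barcodes. Those with at least 8036 UMIs (10% of the 99th percentile of the top 10000), 500 genes and at most 20% mitochondrial UMIs were kept: 9349 iMPC cells (232728796 UMIs, median 20846) and 5383 MEF cells (median 20201). How the 6113 MEF barcodes were chosen before deposit is not given in the sources used here. The MEF sample carries the iMPC treatment text in its protocol, and its own treatment label was used.

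The members and lists were chosen with earlier results of these data known. UMIs were summed over the cells of a gate and scaled to CPM. Intervals are exact Poisson for sums, exact conditional for ratios and Clopper-Pearson for shares, at 95%. Where 1 gate had 0 UMIs of a gene, 3 UMIs stood in for it, and genes with at most 3 in both gates got no ratio. The named genes are the 12 largest ratios in each direction against non-cycling and the 8 against Myog-positive S-phase cells, at 50 CPM or more with the gate genes left out, and, in each list, the 3 highest levels and the largest and smallest ratio. Other names, among them the G2/M genes, were chosen after their values were seen. Some genes that the rule names are not reported here. The ratio script was checked on simulated counts. Python 3.11.15, numpy 2.4.6, scipy 1.17.1, pandas 2.3.3 and scanpy 1.11.5 were used. Gene positions come from GENCODE M21. Doublets were marked but kept, as the rule has no doublet term.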

Additional observations from a re-analysis of the deposited data

How the results depend on the processing

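Over 13 planned and 2 added alternatives, 111 of 122 recomputed values stayed within the interval set for the main value, or within 1.5 times a count. None changed sign beyond its interval. For a list median, that interval was the counting interval of the gene or genes at the middle rank, and no interval of the median itself. It ran from -0.44 to 0.89 for the replication median of 0.20 against Myog-positive S-phase cells. Staying within such an interval is a weak check. The share of Pax7-positive cells in the S-phase gate was 2.92% at a sum of at least 12 UMIs, 10.4% at 6, 5.48% with every limit applied after thinning to 8000 UMIs, and 9.71% among cells of 15000 to 40000 UMIs. The replication lists' median against non-cycling cells was 2.45 when those cells held at most 1 UMI of the S-phase genes and 1.93 over members at 50 CPM. At 50 CPM the counts were 571 genes higher and 361 lower, of 2874 tested. The mitosis list's median was 2.08 with gates drawn on thinned counts and levels summed from the unthinned counts. The non-cycling gate drawn in that way can hold cells with a UMI of Top2a or Mki67 in the unthinned counts. The differentiation list's median was -0.13 with at least 2 UMIs of Pax7. The satellite cell list's was -0.042 over members at 10 CPM, an alternative chosen after seeing the data. The replication median against Myog-positive S-phase cells ranged from -0.01 to 0.30. The cause of these shifts was not tested, except that a higher limit on CPM leaves fewer genes. Scaling by the median gene ratio moved all log2 ratios against non-cycling cells by 0.08. Alternatives on scaling, CPM, free RNA and the non-cycling gate do not apply to the share, and those on the non-cycling gate not to the comparisons with Myog-positive or G2/M cells. No paired analysis was possible because each group has 1 library. Of the gates compared, the 42 S-phase Myog-positive cells hold the fewest UMIs and have the largest counting error.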
